A study of Arabidopsis thaliana with 20 samples.

Results

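The class III peroxidase family was described here at the level of open chromatin, across 7 lists of DNase I hypersensitive peaks from Arabidopsis thaliana seedlings. Members were the nuclear protein-coding genes whose product name in the RefSeq annotation of TAIR10.1 contains the phrase Peroxidase superfamily protein, which gave 62 genes of 27444. Of these, 61 carry the plant peroxidase domain in their annotation note and 1 does not: DOX1, an alpha-dioxygenase that oxidises fatty acids and is known for its induction by pathogens. Another 13 genes with the plant peroxidase domain fell outside the rule because their product has another name, 5 of them by a lower-case letter alone. The members are spread over the 5 nuclear chromosomes, with 12, 12, 8, 11 and 19 genes on chromosomes 1 to 5, and 20 of them stand in 11 neighbouring pairs at most 10000 bp apart. Most have the compact gene structure of the family, with 4 exons in 38 members and 1 exon in 5, and a median length of 1750 bp against 2078 bp over all genes.

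Class III peroxidases are secreted haem enzymes of plants. With hydrogen peroxide they couple monolignols into lignin and cross-link wall proteins and phenolics, which stiffens the wall. They can also produce reactive oxygen that loosens it, and different members act in root growth, seed coats, vascular tissue and defence. DNase I-seq marks where nuclear DNA is open to cutting, which is typical of regulatory DNA, and a peak shows open chromatin, not transcription.

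All seedlings were 7 days old, in the Col-0 background, and carried the INTACT transgenes UBQ10:NTF and ACT2:birA, which tag nuclei for biotin capture under promoters active in most cells. The light series held seedlings raised in the dark without light (dark), and such seedlings moved into light for 30 min, for 3 h, or for 24 h under the day/night cycle (24 h light). The heat series held seedlings raised in cycles of 16 h light at 22 °C and 8 h dark at 20 °C, sampled following 30 min at 45 °C (heat shock), 3 h after a light spray with 0.5% ethanol (spray control), or untreated (LD control). Each condition has 1 library, so no replicate error exists, no difference between conditions could be tested, and every interval below covers counting error only. The lists held 26712 to 34637 nuclear peaks, nearly all 150 bp wide. The spray control list stands apart: it holds 474 organelle peaks where the other 6 lists hold 0, and its median signal is 1036 against 148 to 424 in the others. Signals were therefore ranked within a list, as the percentile of a peak among all nuclear peaks of its own list, and percentiles from different lists are given side by side without reading a change from them. A peak that is open in fewer cells and one that is less open in each cell cannot be told apart in whole seedlings.

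Members held peaks present in every list, peaks of the light series, and peaks of the heat series. Before the counts, 8 peak sequences show these patterns. All were read from TAIR10.1, 5′ to 3′ on the strand of the gene, and the 7 promoter ones stop at the annotated gene start. Capitals mark W-box letters TTGACT, on either strand, the core bound by WRKY factors, or G-box letters CACGTG, bound by bHLH and bZIP factors. A match describes letters and not a bound site. The promoter peak of AT5G39580 (chr5:15849142-15849270, minus strand) and that of PRX71 (chr5:25661061-25661210, minus strand) are shown because no other region at a member ranked at or above percentile 83.5 in all 7 lists.

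AT5G39580: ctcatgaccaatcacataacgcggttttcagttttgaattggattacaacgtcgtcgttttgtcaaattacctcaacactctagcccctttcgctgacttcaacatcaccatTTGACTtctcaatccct

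PRX71: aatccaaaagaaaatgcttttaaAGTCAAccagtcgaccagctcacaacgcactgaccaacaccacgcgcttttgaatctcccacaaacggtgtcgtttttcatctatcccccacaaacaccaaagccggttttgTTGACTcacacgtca

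The distal peak of AT5G64110 (chr5:25657021-25657170, minus strand) and the proximal peak of DOX1 (chr3:162941-163090, minus strand) are shown because each was in all 4 lists of the light series and in none of the heat series. The peak in the first intron of AT3G32980 (chr3:13528161-13528310, minus strand) was in those 4 lists and in that of heat shock.

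AT5G64110: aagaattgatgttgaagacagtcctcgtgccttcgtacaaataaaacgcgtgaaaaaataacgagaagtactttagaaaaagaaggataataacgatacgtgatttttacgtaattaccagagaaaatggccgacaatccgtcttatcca

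DOX1: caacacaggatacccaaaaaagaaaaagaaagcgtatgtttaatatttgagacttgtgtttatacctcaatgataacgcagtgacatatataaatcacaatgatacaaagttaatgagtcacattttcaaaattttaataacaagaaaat

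AT3G32980: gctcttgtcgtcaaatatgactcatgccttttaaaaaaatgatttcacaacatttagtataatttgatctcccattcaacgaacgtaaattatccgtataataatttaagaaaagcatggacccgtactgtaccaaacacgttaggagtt

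The proximal peak of AT5G24070 (chr5:8136181-8136330, minus strand) was in all 3 lists of the heat series and in none of the light series. That of AT4G26010 (chr4:13200301-13200413, plus strand) was in the spray control and LD control lists. The RCI3 peak, farther upstream at −592 bp (chr1:1529101-1529250, plus strand), was in the heat shock list alone.

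AT5G24070: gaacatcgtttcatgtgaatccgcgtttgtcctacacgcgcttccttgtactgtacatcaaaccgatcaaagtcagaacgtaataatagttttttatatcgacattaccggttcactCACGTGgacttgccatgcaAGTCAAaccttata

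AT4G26010: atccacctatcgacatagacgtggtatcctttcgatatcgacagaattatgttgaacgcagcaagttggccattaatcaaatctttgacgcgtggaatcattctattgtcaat

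RCI3: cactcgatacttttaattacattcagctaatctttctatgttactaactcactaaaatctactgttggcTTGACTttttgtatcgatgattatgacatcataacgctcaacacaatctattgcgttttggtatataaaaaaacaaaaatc

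Peroxidase genes had an open promoter less often than genes at large in each of the 7 lists. The promoter window of a gene reached from 1000 bp before its start to 200 bp after it, and a gene counted when a peak touched its window. In the light series 30, 28, 32 and 31 of the 62 genes had a promoter peak in the dark, 30 min light, 3 h light and 24 h light lists. These are 48.4%, 45.2%, 51.6% and 50% of the family, against 60.7%, 62.3%, 68.1% and 60.3% of all genes. In the heat series 32 genes had one after heat shock, 26 in the spray control and 31 in the LD control, which is 51.6%, 41.9% and 50% against 68.1%, 67.9% and 69.9% of all genes. The 95% Wilson interval of the family's share ran from 36.4% to 60.6% in the dark and from 37.9% to 62.1% in the LD control. The share in all genes lay inside the interval only for 24 h light. The count was lowest in the spray control, which the plot of shares by list also shows.

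**Figure D1:**
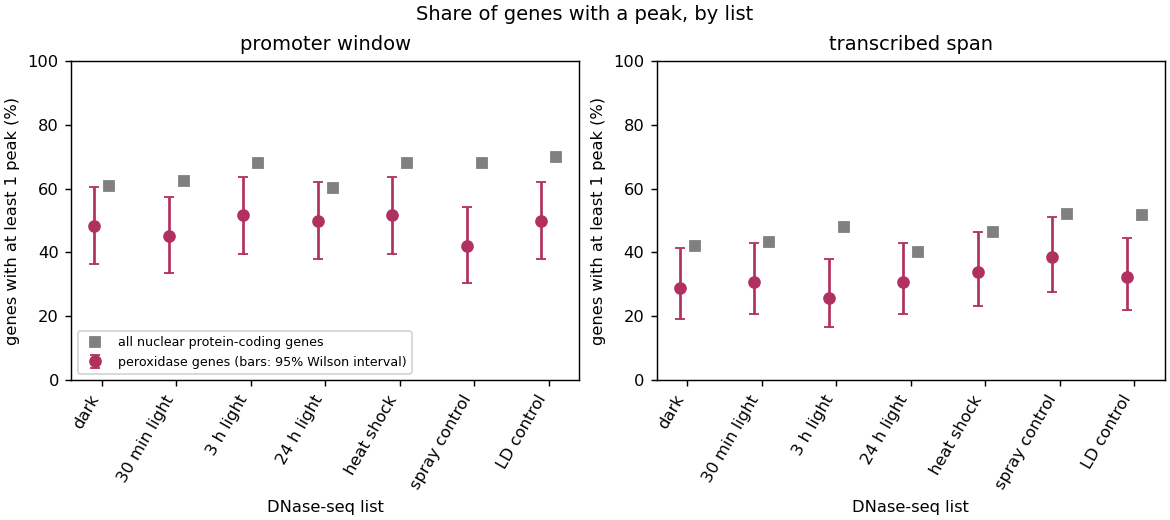
Share of genes (%) with at least 1 peak touching the promoter window (left) and the transcribed span (right) in each DNase-seq list. Circles are the 62 peroxidase genes with 95% Wilson intervals and squares are all 27444 nuclear protein-coding genes; the circles lie below the squares in all 7 lists in both panels.

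Where a promoter peak was present it tended to be low in its list and away from the gene start. The strongest promoter peak of each gene had a median percentile of 41.1, 41.4, 36.3 and 29 over peroxidase genes in the dark, 30 min, 3 h and 24 h light lists, against 54.7, 54.8, 55.9 and 51.9 over all genes with a peak. In the heat shock, spray control and LD control lists it was 37.6, 37.4 and 45.4, against 55.1, 60.6 and 58.5. The peak nearest to the start had its midpoint between 250 bp upstream and 50 bp downstream in 28.1% (heat shock) to 46.7% (dark) of the peroxidase genes that had one, against 58.6% to 63.1% of all such genes. Some members nevertheless reached the top of the lists. AT5G39580, AT5G64110, PRX71 and AT2G39040 had promoter peaks above the 80th percentile in several lists, as the plot of strongest peaks shows. So did DOX1, the member without the plant peroxidase domain.

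**Figure D2:**
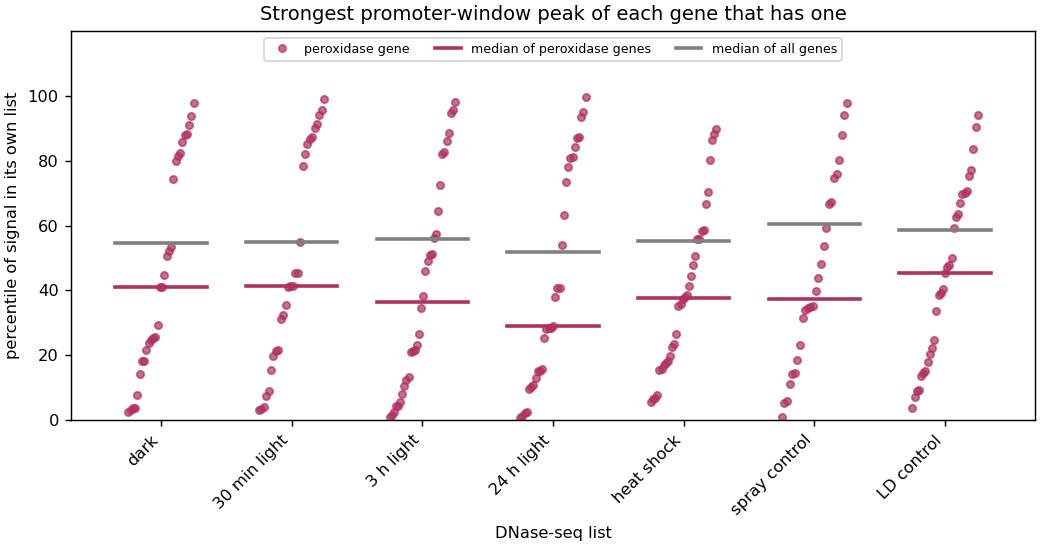
Percentile of signal within its own list (y axis) of the strongest promoter-window peak of each peroxidase gene that has one, by list (x axis). Red lines are medians of the points and grey lines the median over all genes with a promoter peak; the red line is below the grey one in all 7 lists, at 29 against 51.9 in 24 h light.

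Each gene's pattern over the lists was then set out. A promoter peak was present in all 7 lists for 19 members (30.6%, Wilson interval 20.6% to 43%), against 52.4% of all genes. No list held one for 21 members (33.9%, 23.3% to 46.3%), against 23.4% of all genes. Lists of the light series alone held one for 6 members (9.68%, 4.51% to 19.5%), against 2.22% of all genes, and lists of the heat series alone for 5 (8.06%, 3.49% to 17.5%), against 6.32%. All promoter peaks of these 6 ranked at or below percentile 13.2 of their list, and those of these 5 at or below 22.2. The other 11 members had one in both series but not in every list. Without the spray control list, 22 members had a promoter peak in all 6 others and 21 in none, against 53.5% and 24.2% of all genes, and the 6 and 5 members of a single series were the same genes.

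**Figure D3:**
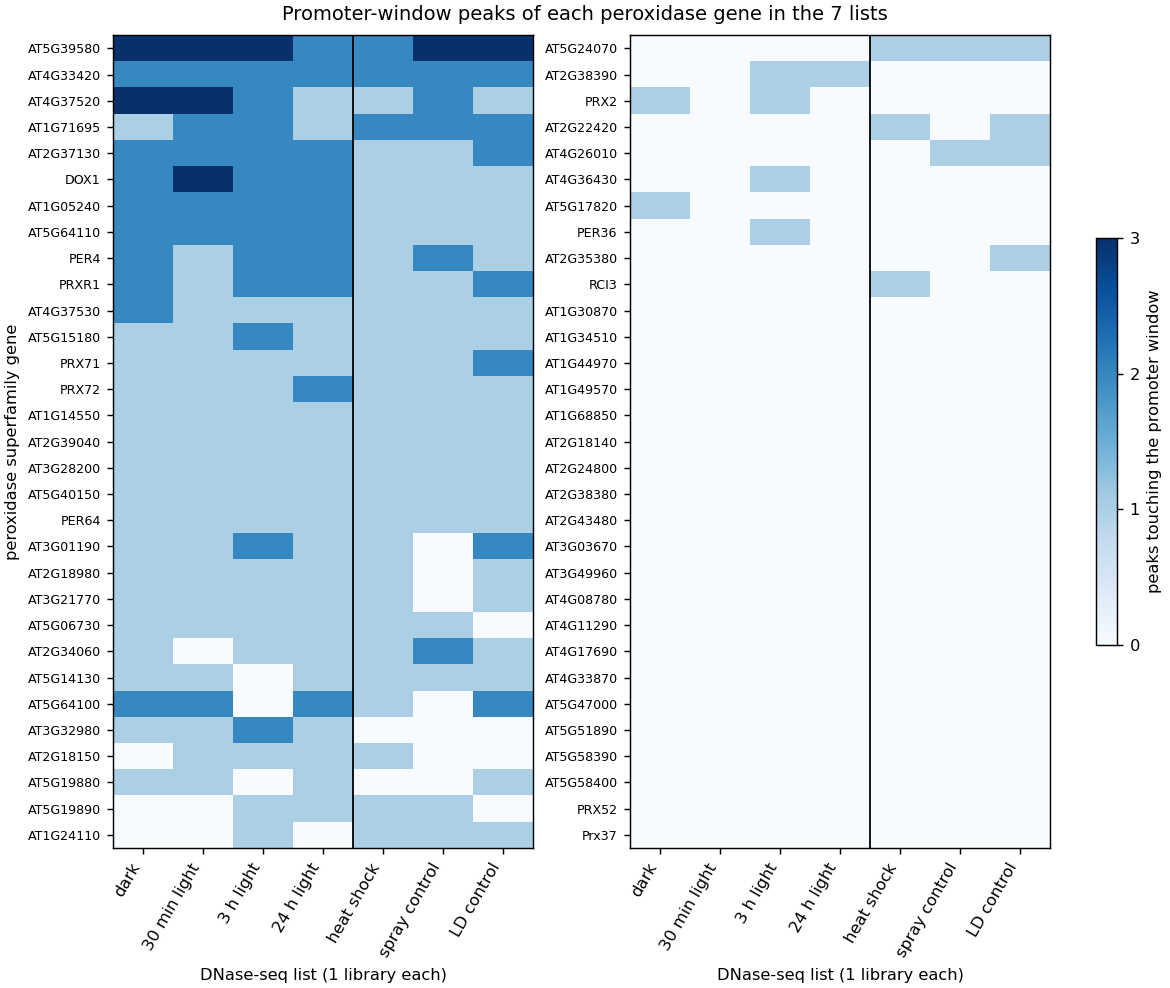
Number of peaks touching the promoter window (colour) of each of the 62 peroxidase genes (rows) in the 7 lists (columns, light series left of the black line and heat series right of it). The upper rows are the 19 genes with a peak in every list and the right panel ends with the 21 genes that have none.

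Of the members with annotated names linked to lignin or walls, PER64, which lignifies the Casparian strip of the root endodermis, had 1 promoter peak in every list. That peak, at −673 bp, ranked at percentiles 52, 41.4, 57.3 and 38 in dark, 30 min, 3 h and 24 h light, and 55.9, 34 and 33.6 in heat shock, spray control and LD control. It also lies within the span of the neighbouring gene AT5G42170. PRX72, a peroxidase of lignin formation, likewise had a promoter peak in every list, but not at a fixed place. A peak at −186 bp was in the 4 light series lists (percentiles 24.7, 19.6, 26.5 and 28.5) and in the LD control (24.6). In the heat shock and spray control lists that peak was absent and another stood at −566 bp, at percentiles 35.1 and 39.7. PRX71, which restrains cell growth and takes part in lignification, had its main peak at −118 bp in every list, at percentiles 88.3, 90, 95.6 and 87.2 in the light series and 88.2, 94.2 and 83.5 in heat shock, spray control and LD control. PER4, also a lignin peroxidase, had a peak at −560 bp in every list (percentiles 44.3 to 70.6) and one at −90 bp in the dark, 3 h light and spray control lists alone.

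Other members of that kind had little or no promoter opening. PRX52, needed for normal lignin in the stem, had no promoter peak in any list. It had a peak in its 3′ UTR in all 7 lists, at percentiles 28.4 to 70, which also lies in the promoter window of the neighbour AT5G05330. PRX2 had a promoter peak in the dark and 3 h light lists alone, at percentiles 3.6 and 8.03, and its counts are uncertain. Of the 36-base words of its window 17.8% occur elsewhere in the nuclear genome, and of those of its span 100%. Prx37, which limits growth through wall cross-linking when overproduced, had no peak in its window or span in any list. PER36, needed for the seed coat to release its mucilage, had 1 promoter peak, at −140 bp in 3 h light, at percentile 1.39. RCI3, first described as a gene induced by cold, had 1 promoter peak, in heat shock at −592 bp and percentile 7.65.

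AT5G39580 had one of the highest-ranking promoter peaks of the family in every list. Its peak at −74 bp had signals of 399, 590, 668 and 443 in dark, 30 min, 3 h and 24 h light, and 927, 3283 and 1327 in heat shock, spray control and LD control. These stand at percentiles 91, 94, 98 and 93.5 in the light series and 86.5, 97.7 and 94.1 in the heat series, so the peak was near the top of every list. A further peak at −524 bp was in every list but 24 h light, and one at −1034 bp in every list but heat shock. The peak at −1034 bp also touches the promoter window of AT5G39590. AT2G39040 had 1 promoter peak, at −760 bp, in every list at percentiles 77.3 to 89.9. AT4G37530 had one at −231 bp in every list at percentiles 64.6 to 90.5.

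PRXR1 had the most peaks of any member over its span, with 4, 4, 3 and 3 in dark, 30 min, 3 h and 24 h light, 2 after heat shock, 4 in the spray control and 6 in the LD control. A promoter peak at −571 bp was in all 7 lists, at percentiles 25.2 to 80.2. Of the others, the peak at 1399 bp inside an intron was in every list but heat shock, and the one at 1689 bp in coding sequence was in the spray control and LD control alone. Peaks around the 3′ end, at 2389 and 2599 bp, were in 5 and 6 lists. They ranked at percentiles 88 and 84.9 in heat shock, 80.6 and 79.7 in spray control, and 86.2 and 80.4 in LD control. In the light series lists that held them they ranked at 40.8 to 57.6. AT1G71695 had an intron peak at 1078 bp in every list and a peak just past its end, at 2708 bp, in every list. The peak past the end also touches the promoter window of SOL1. AT2G37130 had a peak at 99 bp in its 5′ UTR in every list and a second at −431 bp in the 4 light lists and the LD control, absent from heat shock and spray control.

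Several members had promoter peaks in one series alone. AT3G32980 had window and span peaks in every list of the light series. Its window held 1, 1, 2 and 1 peaks and its span 2, 4, 4 and 3 in the dark, 30 min, 3 h and 24 h light lists. The strongest promoter peak in these lists was low, at percentiles 7.64, 8.96, 4.16 and 12.8. Farther along the gene, peaks at 3023 and 3723 bp were each in 1 list (3 h and 30 min light), at percentiles 1.71 and 3.84. In the heat shock list the window held 0 and the span 2, and in the spray control and LD control lists both held 0. Its first intron, chr3:13527808-13529721, is 1914 bp long and held both of its regions that were in 5 lists, at 693 and 1803 bp. These ranked at percentiles 41.9, 50.9, 41.7 and 52.3, and 52.3, 48.7, 30.9 and 57.4, in the 4 light series lists. In heat shock they stood at 2.75 and 3.54, near the bottom of the list.

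DOX1 had a peak at −630 bp in every list, at percentiles 97.7, 99.2, 94.8 and 99.7 in dark, 30 min, 3 h and 24 h light, and 58.5, 23 and 69.8 in heat shock, spray control and LD control. The peak at −120 bp was in the 4 light series lists alone, at percentiles 56.9, 66.1, 56.4 and 74.1. A 5′ UTR peak at 110 bp appeared in 30 min light alone, at percentile 62.6. AT5G64110 had a like layout, with a peak at −568 bp in every list (93.9, 95.6, 88.7 and 95 in the light series, and 66.7, 48.2 and 47.1 in heat shock, spray control and LD control) and one at −1028 bp in the 4 light series lists alone, at percentiles 72.6, 63.7, 72.9 and 70.6. The reverse case was AT5G24070, whose only peak, at −115 bp, was in the 3 heat series lists, at percentiles 18.3, 14.3 and 14.5. AT4G26010 had one at −39 bp in the spray control and LD control, at 5.33 and 13.6. The single-series promoter peaks of AT2G38390, AT4G36430, AT5G17820, AT2G22420 and AT2G35380 all stood at or below percentile 22.2.

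**Figure D4:**
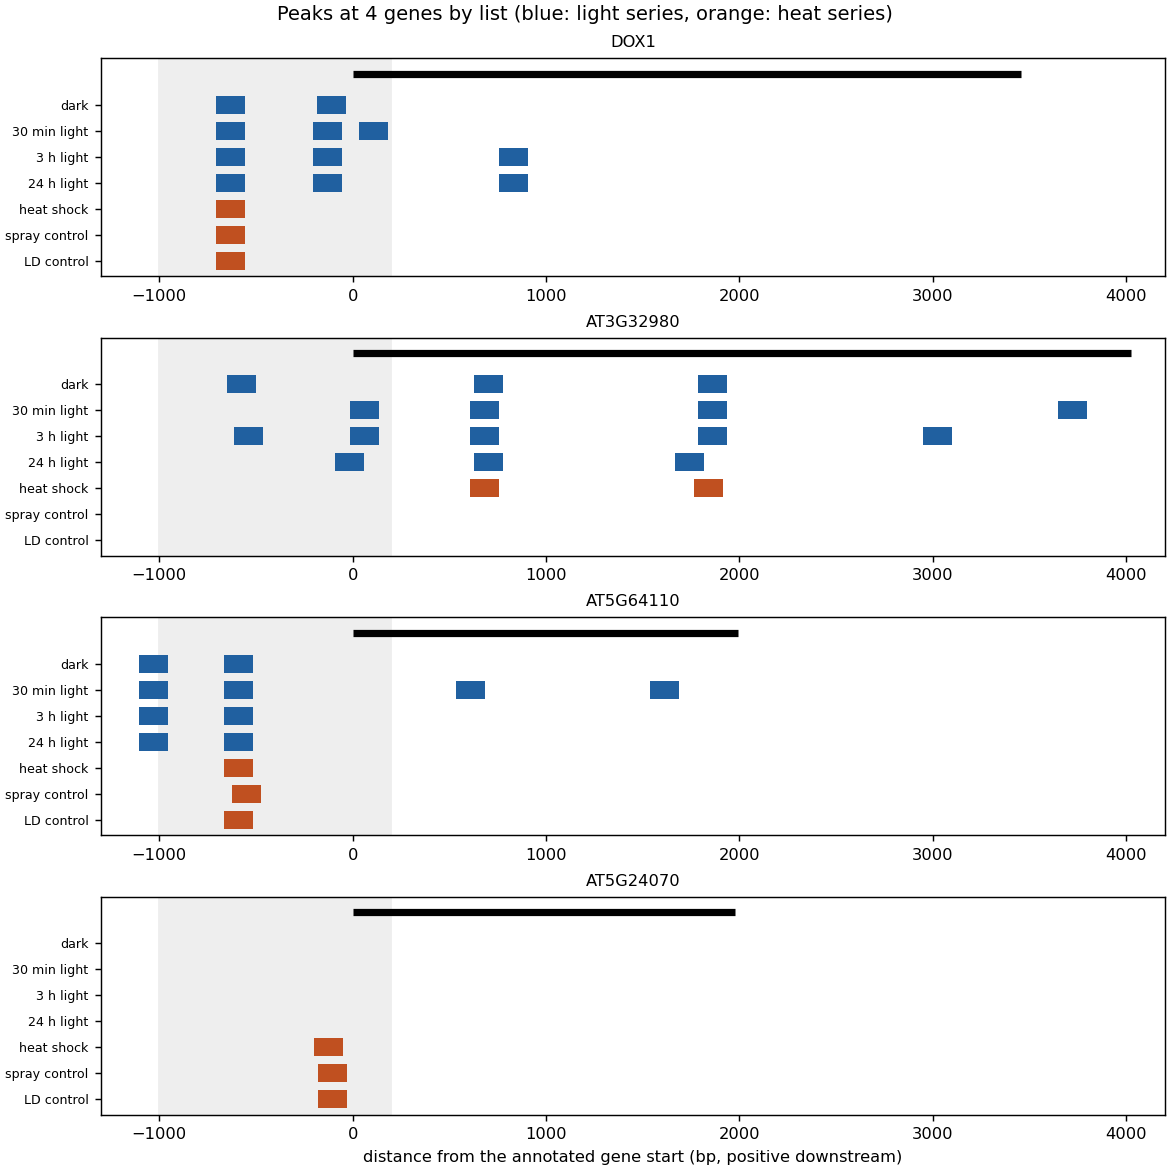
Peaks at DOX1, AT3G32980, AT5G64110 and AT5G24070 in the 7 lists (rows), by distance in bp from the annotated gene start (x axis). Blue bars are peaks of the light series, orange bars those of the heat series, the black line is the transcribed span and the grey band the promoter window; the DOX1 peak at −120 bp and the AT5G64110 peak at −1028 bp are in the 4 light series lists alone.

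Peaks of the 7 lists at members merged into 114 regions, 53 upstream, 11 in 5′ UTRs, 22 in coding sequence, 12 in introns, 8 in 3′ UTRs and 8 past the gene end by midpoint. Of these regions 23 (20.2%, Wilson interval 13.8% to 28.5%) were in all 7 lists, against 40.3% of the regions at all genes. Those of the light series alone numbered 21 (18.4%, 12.4% to 26.5%) against 8.55%, and those of the heat series alone 28 (24.6%, 17.6% to 33.2%) against 23.9%. Leaving out the spray control gave 25 of 105 (23.8%) against 11.9% for the light series alone and 19 of 105 (18.1%) against 18.8% for the heat series alone. The TTGACT letters occurred in 17.5% of the 114 regions (11.7% to 25.6%) and in 15.1% of all 47780 regions, in the 150 bp around each midpoint on both strands. TTGACC, the other W-box form, occurred in 14% against 10.3%, and CACGTG in 6.14% against 8.23%. The intervals of all 3 motif shares held the value over all regions.

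Over the transcribed span, 29%, 30.6%, 25.8% and 30.6% of members held a peak in dark, 30 min, 3 h and 24 h light, against 42%, 43.4%, 47.9% and 40.2% of all genes. After heat shock, in the spray control and in the LD control the shares were 33.9%, 38.7% and 32.3%, against 46.3%, 52% and 51.8%. Per length the family did not stand as low: 0.228, 0.262, 0.202 and 0.236 peaks per kb of span in the light series against 0.219, 0.226, 0.25 and 0.206 over all genes, and 0.228, 0.329 and 0.295 in heat shock, spray control and LD control against 0.246, 0.295 and 0.296.

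Heat shock was compared with the LD control to ask what a short severe heat stress does at these genes. Gained peaks are those of the first list that share no base (1 bp or more) with any peak of the second, and lost peaks those of the second list that share none with the first. After heat shock 7 members had a gained promoter peak (11.3%, Wilson interval 5.58% to 21.5%), against 8.7% of all genes, and 14 a lost one (22.6%, 14% to 34.4%), against 13.2%. The strongest gained ones were at AT2G34060 (−422 bp, percentile 37.3), PRX72 (−556 bp, 35.1), AT1G71695 (−32 bp, 34.4) and AT5G14130 (−60 bp, 26.5), all in the lower 50% of that list. Those of AT2G34060 and AT5G14130 also touch the promoter windows of AT2G34050 and AT5G14140. The strongest lost ones were at AT1G71695 (168 bp, percentile 62.6 of the LD control list), AT5G39580 (−974 bp, 55.2), AT1G05240 (−203 bp, 50), AT2G37130 (−441 bp, 47.9) and PRXR1 (129 bp, 47.8). AT1G71695, AT2G34060, AT5G14130 and PRX72 each had both, a peak at one place in heat shock and at another in the LD control. Counting windows instead of peaks, RCI3, AT2G18150, AT5G06730 and AT5G19890 had a promoter peak in heat shock and none in the LD control. These are 6.45% of members, against 3.05% of all genes, with peaks at percentiles of at most 23.3. AT2G35380, AT4G26010 and AT5G19880 had the reverse (4.84%, against 4.77% of all genes), with peaks at percentiles of at most 13.6. The AT2G18150 region stands at the edge of its window, and the LD control list had a peak there just outside it. Counting changed peaks in the upper 50% of their list alone left 0 members with a gained and 3 with a lost promoter peak, against 1.8% and 2.71% of all genes.

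The spray control was set against the same LD control library, so the 2 comparisons share it. In the spray control 7 members had a gained promoter peak (11.3%), against 9.77% of all genes, and 13 a lost one (21%, Wilson interval 12.7% to 32.6%), against 11%. The strongest gained peak was that of PER4 at −90 bp (percentile 54), followed by PRX72 (−576 bp, 39.7), AT4G37520 (−225 bp, 34.7) and AT2G34060 (−422 bp, 30.1). The AT2G34060 peak also touches the promoter window of AT2G34050. Lost peaks were led by AT1G71695 (168 bp, percentile 62.6 of the LD control list), AT2G37130 (−441 bp, 47.9), AT3G01190 (−90 bp, 47.8) and PRXR1 (129 bp, 47.8). Heat shock and spray thus had like counts against the LD control: 7 and 7 members with a gained promoter peak and 14 and 13 with a lost one. The difference between them was not tested. With changed peaks in the upper 50% of their list alone, the spray control had 1 member of 62 with a gained and 1 with a lost promoter peak, near the 1.64% and 1.61% of all genes.

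**Figure D5:**
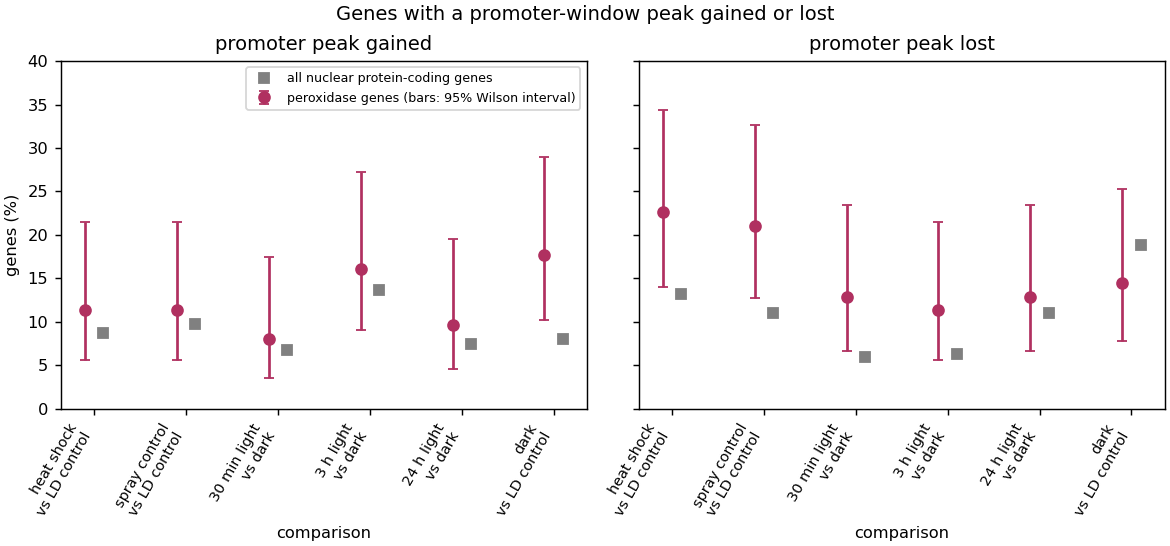
Share of genes (%) with a gained (left) or lost (right) promoter-window peak in each of 6 comparisons. Circles are the 62 peroxidase genes with 95% Wilson intervals and squares all 27444 genes; the square lies below the interval for peaks lost in heat shock and in spray control, lost in 30 min light and gained in the dark against LD control.

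Light was compared with dark to follow the family as dark-grown seedlings begin to green, and the 3 comparisons share the dark library. After 30 min of light 5 members had a gained promoter peak (8.06%, against 6.8% of all genes) and 8 a lost one (12.9%, 6.69% to 23.4%, against 5.9%). After 3 h of light 10 had a gained one (16.1%, against 13.6%) and 7 a lost one (11.3%, 5.58% to 21.5%, against 6.34%). At 24 h light 6 had a gained one (9.68%, against 7.45%) and 8 a lost one (12.9%, against 11%). Gained peaks in the upper 50% of their list were at 1, 2 and 1 members, against 0.685%, 1.46% and 1.14% of all genes: DOX1 in 30 min light (110 bp, percentile 62.6), AT4G33420 in 3 h light (−118 bp, 68.5) and 24 h light (−138 bp, 70.2), and AT5G15180 in 3 h light (−690 bp, 59.7). The AT5G15180 peak also touches the promoter window of TDP1. Lists of equal length gave 3, 2 and 10 members with a gained promoter peak at 30 min, 3 h and 24 h, against 6.13%, 9.35% and 9.39% of all genes. The order of these counts thus depends on the length of the lists, and at 3 h the family's share, above that of all genes in the lists as deposited, was then below it.

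At AT4G33420 the change was one of place. The dark list had a peak at 42 bp (percentile 69.3), which 3 h and 24 h light lacked, and those lists had the peak just upstream instead. In AT5G39580 the peak at −534 bp (percentile 55.9 in the dark) was lost in 24 h light. AT4G37520 had peaks at −225 and 115 bp in the dark, at percentiles 47.6 and 41.9. The one at 115 bp was lost in 3 h light, and both in 24 h light. AT4G37530 had a peak at −1001 bp in the dark list alone, at percentile 41.9. The lit lists had a peak nearby, at −180 bp from it in 30 min light and −300 bp from it in 3 h and 24 h light. PER4 had a peak at −90 bp in the dark (percentile 36.4) that was lost in 30 min and 24 h light, and AT5G64100 one at −588 bp (41.1) that was lost in 3 h light. Other changed peaks were low in their list. AT2G18150 had a promoter peak in all 3 lit lists and none in the dark, at percentiles 2.88, 2.47 and 2.47, and AT2G38390 and AT5G19890 had one at 3 h and 24 h, at percentiles of at most 10.1. AT5G17820 had a peak at −35 bp in the dark alone, at percentile 2.89.

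Dark-grown seedlings were set against the LD control, which differ in their whole growth in light and dark. In the dark 11 members had a gained promoter peak (17.7%, Wilson interval 10.2% to 29%), against 7.97% of all genes, and 9 a lost one (14.5%, 7.83% to 25.3%), against 18.8%. In the upper 50% of their list these were 2 and 1 of 62 members, against 2.14% and 3.54% of all genes. The strongest gained ones were those of AT5G64110 (−1028 bp, percentile 72.6) and DOX1 (−110 bp, 56.9), followed by AT4G37520 (−225 bp, 47.6) and AT4G37530 (−1001 bp, 41.9). Lost ones were led by AT1G71695 (−772 bp, percentile 62.2 of the LD control list), AT2G34060 (58 bp, 45.4), PRX71 (−1068 bp, 42.3) and AT5G14130 (160 bp, 38.6). The AT2G34060 peak also touches the promoter window of AT2G34050.

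Span peaks moved in some members. After heat shock 10 members had a gained span peak, against 6.45% of all genes, and 11 a lost one, against 16%, where 10 and 11 are 16.1% and 17.7% of the family. In the spray control these were 15 members (24.2%, against 11.4%) and 8 (12.9%, against 11.9%). The gained span peaks ranked at percentiles 0.47 to 60.3 in heat shock and 0.228 to 54.1 in the spray control. Apart from AT5G58400 and PRX52, they stood at or below 41.5 and 38.4. The PRX52 peaks also touch the promoter window of AT5G05330. The peaks of AT1G71695 in both lists, AT5G14130 in heat shock and AT4G37520 in the spray control were also counted as gained promoter peaks. Changed span peaks were not recounted by strength. In light against dark the gained counts were 8, 5 and 8 members at 30 min, 3 h and 24 h, against 5.8%, 11% and 5.56% of all genes, and the lost counts 5, 7 and 5, against 4.36%, 4.42% and 8.1%. In the dark against the LD control they were 4 and 10, against 5.06% and 20.4%.

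Neighbouring members did not always have promoter peaks in the same lists. For AT5G19880 with AT5G19890 and AT2G38380 with AT2G38390, the difference rests on peaks low in their list. AT5G19880 and AT5G19890, 1598 bp apart, each had a promoter peak in 4 lists. They were alike, both with or both without one, in 1 list of 7. These peaks stood at percentiles of at most 9.39 and 6.66. AT2G38380 had none in any list, while AT2G38390, 897 bp away, had one in 2, at percentiles 4.16 and 10.1. AT1G05240 had a promoter peak in 7 lists and PRX2, 2577 bp away, in 2 (dark and 3 h light), at percentiles 3.6 and 8.03. In the lists where PRX2 had none, the strongest promoter peak of AT1G05240 was not always low. It stood at percentiles 41.4 in 30 min and 15 in 24 h light, and 55.8, 43.7 and 50 in heat shock, spray control and LD control. The pairs PER4 with AT1G14550, AT4G37520 with AT4G37530, and AT5G64110 with PRX71 were open in every list, and Prx37 with AT4G08780 and AT5G58390 with AT5G58400 in none. Between 3 and 7 members per list had promoter peaks that were all shared with the window or span of another gene.

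Genes that work with the family are given by group as counts with a promoter peak, beside 60.3% to 69.9% of all genes over the 7 lists, and no difference between groups of genes was tested. The 10 NADPH oxidases, which make the superoxide from which peroxide forms, had a promoter peak in 8, 7, 8 and 8 genes in dark, 30 min, 3 h and 24 h light, and 8, 9 and 8 in heat shock, spray control and LD control. Against the LD control, 0 of them had a gained or lost promoter peak after heat shock, against 8.7% and 13.2% of all genes. In the spray control RBOHD and AT4G11230 had a gained one and AT1G19230 a lost one, against 9.77% and 11% of all genes. The 18 catalases, ascorbate peroxidases and superoxide dismutases, which act on reactive oxygen inside the cell, had one in 13, 14, 14 and 13 genes and 17, 17 and 17. The 19 genes of monolignol synthesis, which make the substrates of lignin peroxidases, had one in 16, 13, 17 and 16 genes and 18, 19 and 19. Of these 7 had a lost promoter peak after heat shock, among them PAL1, CCR1, CCR2 and 4CL5, against 13.2% of all genes. A gained one was at 1, again 4CL5, against 8.7%. Losses were not particular to heat shock. In the spray control 4 had a gained and 3 a lost one, CCR1 and CCR2 among the lost. In the dark against the LD control 2 had a gained one and 9 a lost one, against 7.97% and 18.8% of all genes. The 9 included PAL1, CCR1, CCR2 and 4CL5. The 17 laccases, which also polymerise lignin, had one in 8, 8, 8 and 7 genes and 8, 6 and 7, which is a lower share than that of the peroxidases in every list but 30 min light. The 7 partners of PER64 in the Casparian strip had one in 4, 5, 6 and 4 genes and 5, 4 and 4, and MYB36, the regulator among them, had one in 30 min, 3 h and 24 h light and heat shock alone. UPB1, a bHLH factor that represses peroxidase genes in the root, had 2, 2, 2 and 2 promoter peaks in the light series and 1, 1 and 2 in heat shock, spray control and LD control. The 13 plant peroxidases outside the rule had a promoter peak in 7, 7, 7 and 8 genes and 8, 6 and 8.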

How the data were processed

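DNase I-seq was available as 14 samples, with each of 7 libraries listed as single-end and as paired-end reads, and the 2 peak lists of a library were checked to be identical and were used as 1. The 6 RNA-seq samples were not analysed here. Per the labels' protocols, DNase I (45 units) acted on captured nuclei for 3 min at 25 °C. Bowtie 0.12.7, CASAVA 1.8.2 and build TAIR10 are named in the submitters' processing notes. For the peak caller, its threshold and the read depth: not given in the sources used here. Signal, as deposited, is a whole number per peak and was used to rank peaks within a list. The deposited −log10 p-value column has a ceiling in every list and was not used. The series text speaks of samples subsampled to equal depth, and the labels do not mark them.

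Peaks were joined to genes of TAIR10.1 with Python 3.11.15 and numpy 2.4.6. Build and annotation were checked by moving peaks by 5000 bp, which lowered the share of midpoints in promoter windows to between 27.8% and 28.4%, against 57.6% to 61.7% unmoved. Regions are peaks of the 7 lists merged where they overlap. The overlap search was tested on simulated data. The members, the gene lists and the comparisons were chosen with earlier results of these data known. Named genes are, per comparison, the members whose gained or lost promoter peaks rank highest, those with the most peaks, those with annotated names, and others chosen after their values were seen. Of the 62 windows, 50 hold no 36-base word found elsewhere in the nuclear genome. Other windows, overlaps, signal limits, list lengths and member rules were tried. No p-value was computed, since each condition has 1 library.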

Additional observations from a re-analysis of the deposited data

How the results depend on the processing

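The share of members with a promoter peak was below that of all genes in 7 of 7 lists under the deposited lists and each of the other settings tried on it. With windows unique in the genome only the members were filtered, to 50, and the share of all genes was the unfiltered one. Of 12 counts of gained or lost peaks and 14 counts per list, those given here moved by over 1.5 times. Beside each count of members stands the share of all genes at the same setting. Keeping the upper 50% of each list by signal left a promoter peak in 13, 11, 13 and 12 members in dark, 30 min, 3 h and 24 h light (33%, 34%, 38% and 31.1% of all genes) and in 11, 10 and 13 in heat shock, spray control and LD control (37.4%, 41.2% and 40.7%), with 8, 8, 5 and 6 and 7, 12 and 15 span peaks. Gained and lost counts then were 0 and 3 for heat shock (1.8% and 2.71%), 1 and 1 for spray control (1.64% and 1.61%), 1 and 0 for 30 min (0.685% and 0.74%), 2 and 1 for 3 h (1.46% and 1.33%) and 1 and 2 for 24 h of light (1.14% and 1.87%), and 2 and 1 for dark against LD control (2.14% and 3.54%). A narrow window (500 bp upstream to 100 bp downstream) gave 17 members with a peak in heat shock (60.1%) and 20 in the LD control (62.2%). It gave 9 lost in heat shock (8.97%), 8 lost in spray control (7.2%), 2 gained and 5 lost in 30 min (5.12% and 3.94%), 3 gained in 3 h (10.5%), 3 gained and 5 lost in 24 h light (5.82% and 7.65%), and 7 gained and 4 lost in dark against LD control (5.32% and 13.5%). Lists of equal length gave 8 lost in spray control (7.53%), 3 gained and 5 lost in 30 min (6.13% and 5.03%), 2 gained in 3 h (9.35%), 10 gained and 5 lost in 24 h light (9.39% and 8.3%), 5 lost in dark against LD control (11.2%), and 17 and 25 span peaks in heat shock and spray control. An overlap of 75 bp gave 12 gained in heat shock (14.5%), 9 in 30 min (10.6%) and 11 in 24 h light (14.7%), and a distance of 150 bp from any peak gave 3 gained in 30 min light (5.65%). The cause was not tested. Midpoints in place of touching peaks, windows unique in the genome, and 2 settings chosen after seeing the data (the product phrase in any case, with 67 members, and DOX1 left out) kept every count within 1.5 times. No paired analysis was possible because each condition has 1 library. The number of reads behind each list is unknown, so a peak missing from a list may be below what its depth could show.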

Other observations

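The annotation notes name the organs in which many genes are expressed. Of the 8 members noted for the root alone, 3 had a promoter peak in the dark and 5 in the LD control, against 46.3% and 54.9% of the 244 genes with such a note. Among these 8, AT5G24070 and AT4G26010 had promoter peaks in heat series lists alone and AT2G38390 in light series lists alone. Of the 8 members noted for many plant structures, 5 had a promoter peak in the dark and 6 in the LD control, against 81.5% and 91.3% of 8329 genes.

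Organ markers gave the following check of the seedling label. The 14 markers were of shoot, root, root epidermis and stomata. A promoter peak was at 5, 5, 8 and 6 of them in dark, 30 min, 3 h and 24 h light. In heat shock, spray control and LD control 9, 6 and 8 had one. These are 35.7% to 64.3% of the markers, against 60.3% to 69.9% of all genes over the lists. PLT1, WOX5, RHD6 and MUTE had a promoter peak in no list. In 3 h light against dark 5 of the 14 had a gained promoter peak, the shoot markers CAB2, RBCS1A and RBCS3B and the root hair markers SHV2 and EXPA7, and SCR a lost one, against 13.6% and 6.34% of all genes.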
